A study of Mus musculus with 6 samples.

Results

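The IL-6 family of cytokines, its receptors and their common feedback inhibitor were examined in infarcted hearts of wild-type (WT) mice and of mice without the thymic stromal lymphopoietin (TSLP) receptor. The set was fixed by gene symbol as the ligands Il6, Lif, Osm and Il11, the receptor chains Il6ra, Il6st, Lifr, Osmr and Il11ra1, and the inhibitor Socs3. Each symbol matched 1 row, so 10 of the 54532 listed genes belong to the set. Bulk RNA was sequenced from 3 WT and 3 Crlf2-/- hearts on day 7 after permanent ligation of the left anterior descending coronary artery, with 1 library per heart. Nothing in the labels says how the hearts were assigned to cages, litters or days, so p-values measure the spread between these libraries. Crlf2 encodes the chain that binds TSLP, and the sample labels call the second group TSLPR KO and give the strain of both groups as C57BL/6. The methods of the study describe the WT animals as young adult male C57BL/6J mice from a commercial supplier, and the Crlf2-/- animals as a line made by another company on the same background, so supplier and genotype cannot be told apart. The age of the Crlf2-/- mice is not given in the sources used here, and uninjured hearts were not analysed here. Each sample combined peri-infarcted and infarcted tissue. The question addressed was whether loss of TSLP signalling was accompanied by a different level of these transcripts.

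IL-6, LIF, OSM and IL-11 all signal through gp130, the receptor chain encoded by Il6st. IL-6 and IL-11 first bind a private α chain, IL-6Rα or IL-11Rα, whereas leukemia inhibitory factor (LIF) joins gp130 to LIFR, and oncostatin M (OSM) joins gp130 mainly to OSMR in mice. The assembled receptors activate JAK kinases and the transcription factor STAT3, and STAT3 induces Socs3, whose product binds gp130 and JAKs and ends the signal. In the injured heart the family is known for protection of cardiomyocytes, for cardiomyocyte dedifferentiation under OSM, and for fibroblast activation under IL-11.

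Because Socs3 is a direct STAT3 target and several ligand genes respond to AP-1, the stretches before the transcription starts of these genes are shown. Windows of 300 bases, from 250 before to 50 after the start, were taken from RefSeq (GRCm38.p6), where 9 of the 10 symbols had at least 1 of 12 windows. Both strands were searched for the STAT motif TTCNNNGAA and the AP-1 motif TGANTCA, which do not overlap in the sequences printed. The 250 bases before the start are printed 5′ to 3′ on the strand of the gene, with motif matches in capitals. Socs3 lies at chr11:117969367-117969616 (minus strand), Il6 at chr5:30012864-30013113 (plus strand), Lif at chr11:4257318-4257567 (plus strand) and the Il11 start that carries a match at chr7:4778142-4778391 (minus strand).
Socs3: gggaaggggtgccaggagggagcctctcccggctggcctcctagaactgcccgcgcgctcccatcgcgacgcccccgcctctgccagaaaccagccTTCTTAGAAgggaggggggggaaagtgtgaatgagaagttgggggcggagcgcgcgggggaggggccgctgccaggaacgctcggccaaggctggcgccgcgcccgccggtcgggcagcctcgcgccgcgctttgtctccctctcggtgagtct
Il6: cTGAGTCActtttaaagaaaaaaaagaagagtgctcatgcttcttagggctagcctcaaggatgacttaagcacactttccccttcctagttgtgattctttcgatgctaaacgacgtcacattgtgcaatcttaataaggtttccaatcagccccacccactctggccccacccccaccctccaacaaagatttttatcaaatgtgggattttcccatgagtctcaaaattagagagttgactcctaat
Lif: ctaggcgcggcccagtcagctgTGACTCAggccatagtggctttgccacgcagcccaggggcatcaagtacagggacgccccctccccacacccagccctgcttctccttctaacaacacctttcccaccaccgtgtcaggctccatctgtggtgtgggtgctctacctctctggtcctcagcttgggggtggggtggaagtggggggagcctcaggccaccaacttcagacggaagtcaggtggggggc
Il11: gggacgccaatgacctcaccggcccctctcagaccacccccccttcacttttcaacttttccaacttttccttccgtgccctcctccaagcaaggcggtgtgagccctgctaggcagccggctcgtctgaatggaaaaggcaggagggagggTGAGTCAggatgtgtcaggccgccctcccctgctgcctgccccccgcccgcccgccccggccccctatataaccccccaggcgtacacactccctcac
Socs3 held the only STAT match among the 12 windows, TTCTTAGAA at positions -154 to -146 counted from the start. Over all 32817 windows of the same length, 8.29% held this motif. An AP-1 match was present at -249 to -243 for Il6, at -98 to -92 for Il11 and at -228 to -222 for Lif, and 1 further match lay in Osmr just after the start, from 4 to 10. These 4 of 12 windows compare with 7.81% of all windows. A match describes letters only and is not evidence of binding.

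Listed genes held 18508646 to 19682428 fragments in each library, as worked out from gene length and FPKM (fragments per kilobase of exon model, scaled to the mapped fragments of the library). The chain that was targeted, Crlf2, was still detected in the 3 Crlf2-/- libraries at 13.2, 18.7 and 19.8 FPKM, against 26.6, 25.1 and 21.6 FPKM in WT. All Crlf2-/- values were below all WT values (p = 0.1 in a two-sided exact permutation test, which cannot go lower with 3 against 3 libraries). A value per gene does not show which exons were transcribed. The tissue is labelled heart, while the extraction text of the labels names retina. None of 5 retinal markers passed the filter, with at most 10 fragments for any of them in any library, and the 10 cardiomyocyte markers were detected in every library. The 6 libraries were alike across genes, which are not independent replicates: Pearson's r was 0.977 to 0.986 within groups and 0.971 to 0.982 between them.

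None of the 10 family genes passed the test between Crlf2-/- and WT hearts. Calling a gene required that limma's p, adjusted by Benjamini-Hochberg over 15520 tested genes, did not exceed 0.05 and that the log2 fold change was at least 0.5 in either direction. This rule called 0.0129% of all genes, and all 10 family genes were among those tested. The study reported many more genes at the same cut-offs with a count model, DESeq2. That model was not rerun here, and the reason for the different number of calls was not tested. With limma voom on fragments worked out from FPKM, 2 genes were called, as in the fit reported here. At an unadjusted p under 0.05, 2 of the 10 remained, Lif on the higher side and Lifr on the lower side, where 6.54% of all genes reached this level (3.29% higher and 3.25% lower in Crlf2-/- hearts). Groups without overlap were seen for 1 of the 10, Lifr, which lay lower in Crlf2-/- hearts. The same held for 11.7% of all genes tested, with 5.24% higher and 6.45% lower. The fitted values split by role. All 5 receptor chains had a log2 fold change below 0, with a median of -0.18, and 3 of 4 ligands had one above 0, with a median of 0.29. Over all tested genes 49.8% were above 0. With so few members and no call, these counts are given as a description.

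**Figure D1:**
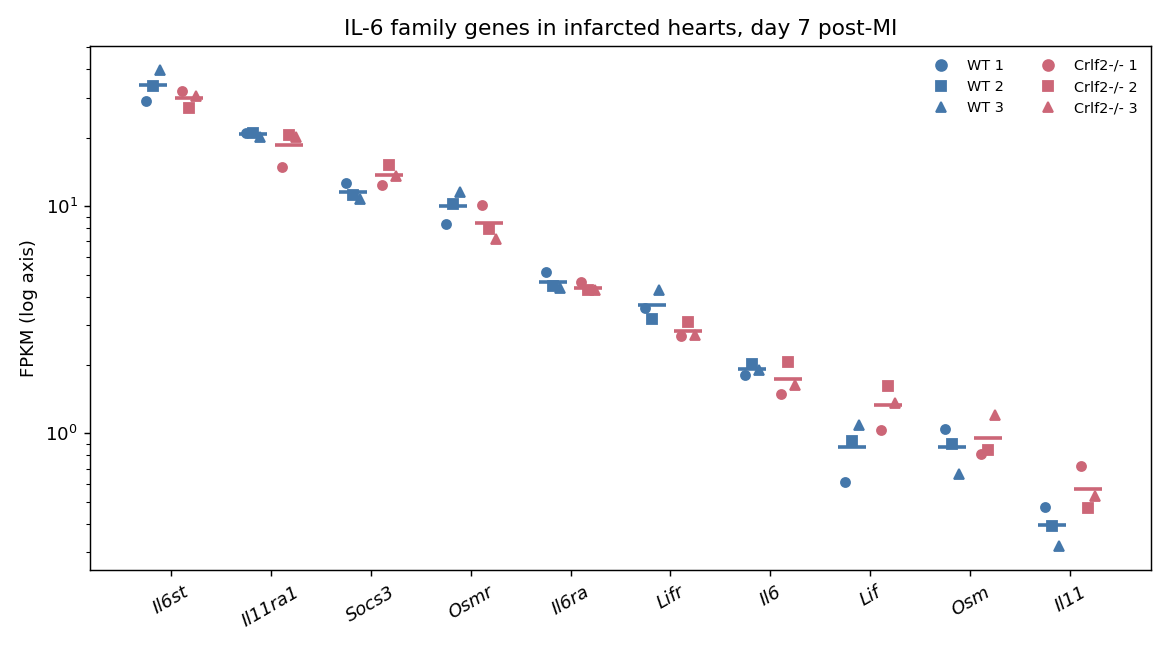
FPKM of each family gene (log axis) in the 3 WT libraries (blue) and the 3 Crlf2-/- libraries (red), with 1 symbol per library and a bar at the group mean, ordered by the WT mean. The receptors and Socs3 lie above 2 FPKM and the ligands mostly below, and for Lifr alone the 3 red points lie below all 3 blue points.

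The ligands were the least abundant transcripts of the set. Il6, the acute inflammatory cytokine of the family, had 1.81, 2.03 and 1.90 FPKM in the 3 WT libraries and 1.49, 2.07 and 1.63 FPKM in the 3 Crlf2-/- libraries. The highest and the lowest value both belonged to Crlf2-/- hearts, and the groups overlapped. The group means were 1.91 ± 0.114 and 1.73 ± 0.303 FPKM (SD, n = 3), with a log2 fold change of -0.15 (95% confidence interval -0.51 to 0.22, limma adjusted p = 0.985). It was -0.05 (-0.054) without Crlf2-/- replicate 1 and -0.27 without Crlf2-/- replicate 2. The Il6 gene (ENSMUSG00000025746) spans positions 30013114 to 30019981 of chromosome 5 (plus strand), and its values rest on 80 to 117 fragments.

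Lif, which acts on cardiomyocytes and stem cells through LIFR, showed the largest fitted difference of the 10 genes. It had 0.609, 0.923 and 1.09 FPKM in WT and 1.04, 1.62 and 1.36 FPKM in Crlf2-/- hearts. Crlf2-/- replicates 2 and 3 lay above every WT library, while Crlf2-/- replicate 1 lay just below the highest WT library, so the groups overlapped. WT hearts averaged 0.875 ± 0.246 FPKM (SD, n = 3) and Crlf2-/- hearts averaged 1.34 ± 0.29 FPKM (SD, n = 3), a ratio of 1.53. On the log2(FPKM + 0.1) scale, which understates differences of low genes, the fold change was 0.58 (standard error 0.25, confidence interval 0.006 to 1.15, limma unadjusted p = 0.0481, adjusted p = 0.753). The exact permutation test gave p = 0.2 (two-sided). Without WT replicate 1, which had the lowest value, the fold change was 0.36 (unadjusted p = 0.167), and without WT replicate 3 it was 0.74. Lif (ENSMUSG00000034394) spans positions 4257557 to 4272514 of chromosome 11 (plus strand), with 61 to 164 fragments per library.

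Osm (ENSMUSG00000058755), made mainly by macrophages and neutrophils, is the neighbour of Lif on the same strand of chromosome 11, from 4236420 to 4241026, with 16530 bases between both genes. It rests on 33 to 62 fragments. Its levels were 1.05, 0.894 and 0.664 FPKM in WT and 0.814, 0.849 and 1.21 FPKM in Crlf2-/- hearts. The groups overlapped widely, and the order of the libraries was not that of Lif: the first WT library was lowest for Lif and highest of its group for Osm. The log2 fold change of Osm was 0.13 (confidence interval -0.41 to 0.67, limma adjusted p = 0.996), and leaving out either WT replicate 3 or Crlf2-/- replicate 3 turned it to -0.03.

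Il11, a cytokine of activated fibroblasts, was the lowest gene of the set. Its 0.475, 0.390 and 0.318 FPKM in WT and 0.717, 0.469 and 0.529 FPKM in Crlf2-/- hearts rest on 14 to 22 and on 22 to 32 fragments. The second Crlf2-/- library lay within the WT range and the other two lay above it. At 14 fragments, counting error alone is 26.7% of the value, and the SD of the WT group was 0.0784 around a mean of 0.394 FPKM. Its log2 fold change was 0.44 (confidence interval -0.10 to 0.99, limma adjusted p = 0.849), and 0.29 without Crlf2-/- replicate 1. Il11 (ENSMUSG00000004371) spans positions 4772373 to 4782857 of chromosome 7 (minus strand).

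The signal-transducing chain Il6st was the most abundant member. It had 29.0, 33.7 and 39.8 FPKM in WT and 32.2, 26.9 and 30.4 FPKM in Crlf2-/- hearts. The values of both groups overlapped, and the 2 highest were WT libraries. Means were 34.2 ± 5.4 and 29.8 ± 2.7 FPKM (SD, n = 3), with a log2 fold change of -0.18 (confidence interval -0.50 to 0.14, limma adjusted p = 0.942). The WT libraries of this well-covered gene (at least 6956 fragments, a counting error of 1.2%) differed among themselves by more than the group means did. The fold change was -0.06 without WT replicate 3, -0.10 without Crlf2-/- replicate 2 and -0.29 without WT replicate 1 (unadjusted p = 0.0716). Il6st (ENSMUSG00000021756) spans positions 112464070 to 112510086 of chromosome 13 (plus strand).

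Lifr, the chain that LIF adds to gp130, was the only family gene whose groups did not overlap. Its levels were 3.55, 3.19 and 4.27 FPKM in WT and 2.68, 3.09 and 2.70 FPKM in Crlf2-/- hearts. The highest Crlf2-/- library (3.09) lay only just below the lowest WT library (3.19). WT hearts averaged 3.67 ± 0.547 FPKM (SD, n = 3) and Crlf2-/- hearts averaged 2.82 ± 0.231 FPKM (SD, n = 3), a ratio of 0.77. The log2 fold change was -0.35 (standard error 0.14, confidence interval -0.68 to -0.02, limma unadjusted p = 0.0397, adjusted p = 0.725), and the exact permutation test gave its smallest possible p of 0.1 (two-sided). Leaving out WT replicate 2 gave -0.45, and leaving out WT replicate 3 gave -0.24. Lifr (ENSMUSG00000054263) spans positions 7090614 to 7197489 of chromosome 15 (plus strand) and is covered by 640 to 1005 fragments.

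Osmr (ENSMUSG00000022146), the partner of gp130 for OSM, is the neighbour of Lifr on chromosome 15, on the minus strand from 6813577 to 6874969, with 215644 bases in between. It had 8.33, 10.2 and 11.5 FPKM in WT and 10.1, 7.97 and 7.20 FPKM in Crlf2-/- hearts. Crlf2-/- replicates 2 and 3 lay below every WT library, and Crlf2-/- replicate 1 lay within the WT range. The log2 fold change was -0.24 (confidence interval -0.62 to 0.14, limma adjusted p = 0.925). It became -0.38 without Crlf2-/- replicate 1 (unadjusted p = 0.0406) and -0.13 without WT replicate 3.

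Il6ra, the IL-6-binding α chain, differed least. It had 5.14, 4.46 and 4.37 FPKM in WT and 4.62, 4.27 and 4.26 FPKM in Crlf2-/- hearts, and the groups overlapped. The log2 fold change was -0.07 (-0.075, confidence interval -0.34 to 0.19, limma adjusted p = 0.996), and leaving out Crlf2-/- replicate 1 gave -0.12 (-0.116), while leaving out WT replicate 1 gave -0.003. Il6ra (ENSMUSG00000027947) spans positions 89864059 to 89913196 of chromosome 3 (minus strand). An antisense gene, Gm42809, shares 2.8% of its exon bases and had no fragment in any library.

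Il11ra1, the IL-11-binding α chain, had 21.0, 20.9 and 20.2 FPKM in WT and 14.9, 20.6 and 20.2 FPKM in Crlf2-/- hearts. In 5 of the 6 libraries the level was close to 20 FPKM, and 1 library, Crlf2-/- replicate 1, stood below them. The log2 fold change of -0.16 (confidence interval -0.47 to 0.15, limma adjusted p = 0.955) was -0.02 (-0.017) without that library. Il11ra1 (ENSMUSG00000073889) spans positions 41699989 to 41769474 of chromosome 4 (plus strand). Its near copy Il11ra2 on chromosome 4 was counted at 16, 22 and 7 fragments (WT) and at 3, 30 and 7 fragments (Crlf2-/-). At 3 fragments, counting error alone is 57.7% of the value, so the order of the low libraries is not resolved. Further rows named Il11ra2, on scaffolds outside the chromosomes, held at most 2 fragments in any library. Of all stretches of 100 bases in coding transcripts, 41.8% of those of Il11ra2 also occur in Il11ra1, and 20% of those of Il11ra1 also occur in Il11ra2. Fragments from these stretches could be assigned to either gene or to none, so both levels are uncertain.

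Socs3, the feedback inhibitor, had 12.7, 11.2 and 10.7 FPKM in WT and 12.4, 15.2 and 13.6 FPKM in Crlf2-/- hearts. Crlf2-/- replicates 2 and 3 lay above every WT library, and Crlf2-/- replicate 1 lay just below the highest WT library, as for Lif. The means were 11.5 ± 1.06 and 13.7 ± 1.38 FPKM (SD, n = 3), a ratio of 1.19. This gave a log2 fold change of 0.26 (standard error 0.12, confidence interval -0.01 to 0.52, limma unadjusted p = 0.0558, adjusted p = 0.782). It stayed between 0.19 and 0.33 when single libraries were left out. Socs3 (ENSMUSG00000053113) spans positions 117966079 to 117970047 of chromosome 11 (minus strand), with 675 to 1024 fragments.

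**Figure D2:**
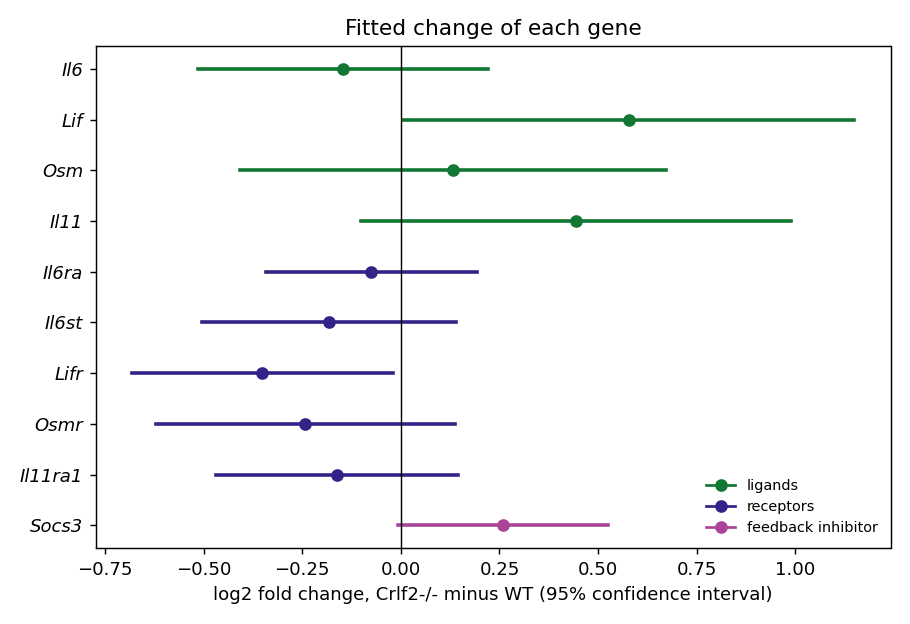
Log2 fold change of each family gene, Crlf2-/- minus WT, on the log2(FPKM + 0.1) scale, with points for limma's estimate and lines for its 95% confidence interval, coloured by role. The intervals of Lif and Lifr exclude 0 by a small margin (0.006 and -0.02 at the near end), the interval of Socs3 ends at -0.01, and the 5 receptor estimates lie between -0.35 and -0.07.

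Ordered by FPKM, which is scaled to gene length and so allows genes to be compared, the sequence of the 10 genes was the same in WT and in Crlf2-/- hearts: Il6st, Il11ra1, Socs3, Osmr, Il6ra, Lifr, Il6, Lif, Osm and Il11. In WT the neighbours Socs3 and Osmr (10.7 to 12.7 and 8.33 to 11.5 FPKM) and the neighbours Lif and Osm (0.875 and 0.870 FPKM) overlapped. In Crlf2-/- hearts the overlapping neighbours were Il11ra1 and Socs3 (18.6 and 13.7 FPKM), Il6 and Lif (1.73 and 1.34 FPKM), and Lif and Osm (1.34 and 0.958 FPKM). All other neighbours were apart in their group. The 4 ligands together amounted to 3.94, 4.24 and 3.98 FPKM in WT and 4.05, 5.0 and 4.72 FPKM in Crlf2-/- hearts. The 5 receptor chains together amounted to 67.0, 72.5 and 80.1 FPKM in WT and 64.5, 62.8 and 64.7 FPKM in Crlf2-/- hearts. The receptor sums did not overlap between groups, whereas the ligand sums did. The lowest WT receptor sum (67.0 FPKM) lay just above the highest Crlf2-/- receptor sum (64.7 FPKM), and of the 5 chains Lifr alone did not overlap by itself. Il6st and Il11ra1 were the main contributors to the receptor sum, and each overlapped between groups.

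Ratios between family genes within a library do not depend on how libraries are scaled. They were chosen after the levels had been seen and are therefore given without a test. The ratio of Lif to Lifr was 0.172, 0.289 and 0.256 in WT and 0.387, 0.523 and 0.501 in Crlf2-/- hearts, so each Crlf2-/- library lay above each WT library. This ratio joins the 2 members with the smallest unadjusted p of limma, Lif with a fold change above 0 and Lifr with one below 0. A higher ratio therefore follows from the levels already given and is no separate result. The ratio of Il11 to Il11ra1 was 0.0226, 0.0186 and 0.0158 in WT and 0.0480, 0.0228 and 0.0262 in Crlf2-/- hearts, with the lowest Crlf2-/- value only just above the highest WT value. Both of these values rest on 22 Il11 fragments, so their order is not resolved. The highest ratio came from Crlf2-/- replicate 1, the library with the lowest Il11ra1 level (14.9 FPKM). Among the receptor chains, ratios overlapped between groups: Il6st to Il6ra was 7.44 ± 1.73 and 6.80 ± 0.444 (SD, n = 3), Il6st to Lifr was 9.36 ± 1.19 and 10.6 ± 1.74, and Osmr to Lifr was 2.75 ± 0.427 and 3.01 ± 0.67. The ratio of the neighbours Lif and Osm, 1.09 ± 0.535 in WT and 1.43 ± 0.415 in Crlf2-/- hearts, overlapped too.

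**Figure D3:**
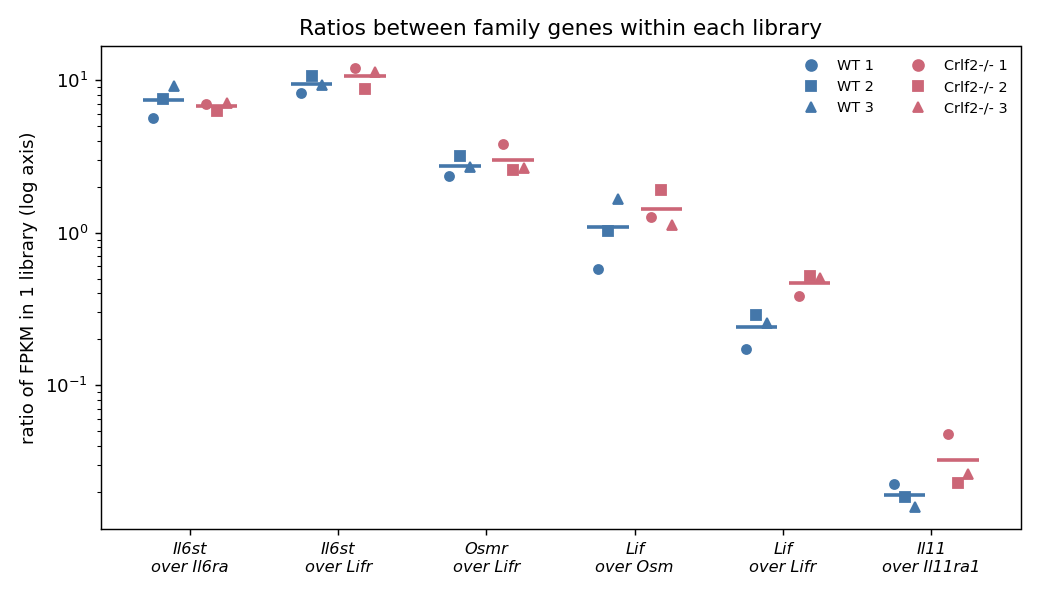
Ratio of the FPKM of family genes within each library (log axis), with 1 symbol per library, a bar at the group mean, WT in blue and Crlf2-/- in red. For Lif over Lifr, a pair of opposite fitted directions chosen after the levels were seen, the red points (0.387 to 0.523) lie above the blue points (0.172 to 0.289). For the receptor pairs the points of both groups overlap.

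Of the other genes of the family, 8 were tested and 0 were called by limma, with 1 at an unadjusted p under 0.05 (6.54% of all genes tested). Among the ligands, Clcf1, which acts through the CNTF receptor, had a log2 fold change of 0.15 (0.145), Ctf1, which encodes cardiotrophin-1, had 0.16, and Ebi3, the shared subunit of IL-27 and IL-35, had 0.06 (0.065). Il27 had -0.10 on 5 to 15 fragments. Cntf, Ctf2, Il31 and Il31ra missed the filter, with at most 4 fragments per library. Il27ra, the IL-27 receptor chain found on T cells, had 3.17, 2.46 and 2.54 FPKM in WT and 1.78, 1.82 and 2.16 FPKM in Crlf2-/- hearts. The groups did not overlap, and its log2 fold change was -0.47 (limma unadjusted p = 0.0162, adjusted p = 0.547). Beside it, 8 of 9 T cell markers were lower without overlap (6.45% of all genes tested), with summed levels of 16.0 to 24.5 FPKM in WT and 9.43 to 12.2 FPKM in Crlf2-/- hearts. The part of these markers' cells in the value of Il27ra was not tested. Cntfr had a log2 fold change of 0.24 (0.235) and Il11ra2 one of -0.45, on the few fragments given above.

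The kinases and transducers below gp130 had 0 of 10 called by limma, 1 at an unadjusted p under 0.05 (6.54% of all genes tested) and 4 above 0, around a median of -0.03 on the log2 scale. Stat3, the main transducer of the family, had 19.3, 21.4 and 21.0 FPKM in WT and 20.5, 18.1 and 19.7 FPKM in Crlf2-/- hearts, with overlapping groups and a log2 fold change of -0.07 (-0.074). Jak1 had -0.10 and Stat5b had -0.08. Adam10 and Adam17, which release soluble IL-6Rα, had 0.01 (0.009) and -0.07 (-0.074).

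Of 8 inhibitors of JAK-STAT signalling apart from Socs3, 4 were above and 4 below 0, with a median of -0.003 and 0 called by limma (1 at an unadjusted p under 0.05, against 6.54% of all genes tested). Cish, induced by STAT5, had 1.05, 1.43 and 1.14 FPKM in WT and 0.555, 0.708 and 0.919 FPKM in Crlf2-/- hearts. Its groups did not overlap (log2 fold change -0.67 (-0.665), limma unadjusted p = 0.0171, adjusted p = 0.557). Socs1 had a log2 fold change of 0.18, Socs2 one of -0.18 and Ptpn2 one of -0.10.

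Of 27 genes listed as STAT3 targets, 23 were tested, 14 were above and 9 below 0, and 0 were called by limma, with a median log2 fold change of 0.08 (0.076). At an unadjusted p under 0.05 there were 3, namely Fos on the higher side and Mt1 and Hp on the lower side, which is 1 higher and 2 lower. This level was reached by 6.54% of all genes tested (3.29% higher and 3.25% lower). Fos, an immediate early gene and AP-1 subunit, had 5.11, 4.18 and 3.52 FPKM in WT and 6.54, 7.82 and 5.02 FPKM in Crlf2-/- hearts (log2 fold change 0.59, limma unadjusted p = 0.0153, adjusted p = 0.538). The third Crlf2-/- library lay just below the highest WT library, and the other two above all WT libraries. Mt1, a metal-binding metallothionein, had 74.5, 81.1 and 65.4 FPKM in WT and 61.4, 58.5 and 50.8 FPKM in Crlf2-/- hearts, without overlap (log2 fold change -0.36, limma adjusted p = 0.596). Hp, which encodes the acute phase protein haptoglobin, had 46.4, 53.5 and 17.7 FPKM in WT and 17.2, 14.2 and 21.8 FPKM in Crlf2-/- hearts, so that its difference came from the first and second WT libraries (log2 fold change -1.005, limma adjusted p = 0.687). Myc had a log2 fold change of 0.27 (limma adjusted p = 0.797). The acute phase genes Fgg, Hamp, Reg3b and Reg3g missed the filter, with at most 7 fragments in any library.

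The cells that make and receive these cytokines were followed by marker lists. In bulk tissue, fewer cells of a type and less RNA per cell cannot be told apart. The 10 cardiomyocyte markers all had a log2 fold change below 0, with a median of -0.79 and summed levels of 1160, 2160 and 1930 FPKM in WT and 842, 778 and 1490 FPKM in Crlf2-/- hearts. The sum of Crlf2-/- replicate 3 lay within the WT range. Groups without overlap were seen for 1 of the 10, Myl2, and 4 had a limma unadjusted p under 0.05. Over all genes tested, these shares were 11.7% and 6.54%. Ckm had the higher mean FPKM in Crlf2-/- hearts (12.1, against 9.1 in WT). Lifr and Il6st, which cardiomyocytes express, also had log2 fold changes below 0 (-0.35 and -0.18), and the part of cardiomyocyte RNA in the receptor values was not tested. For Il6st, the lowest value in each group (29.0 FPKM in WT and 26.9 FPKM in Crlf2-/- hearts) was in the library with the lowest cardiomyocyte sum of that group. For Lifr, the lowest values (3.19 FPKM in WT and 2.68 FPKM in Crlf2-/- hearts) were in other libraries. By the median deviation of the markers from the WT mean, the lowest Crlf2-/- library was instead replicate 1 (-1.565, against -1.159 in replicate 2). Replicate 1 held the lowest Lifr value of its group and replicate 2 the lowest Il6st value, so the match depended on the summary. The fibroblast list had a median of -0.04 (-0.044), with 4 of 8 above 0 and sums of 6350 to 7600 FPKM in WT and 7490 to 7620 FPKM in Crlf2-/- hearts. The macrophage list had a median of 0.10, with 9 of 10 above 0 and overlapping sums of 2360 to 4190 and 2770 to 3430 FPKM. The neutrophil list had a median of 0.02 (0.016) over 6 tested genes, with overlapping sums of 16.5 to 28.9 and 18.4 to 23.9 FPKM. Osm, made by these myeloid cells, had its highest WT value in the first WT library, which also held the highest macrophage and neutrophil sums, while its highest value of all (1.21 FPKM) was in Crlf2-/- replicate 3, whose sums were the lowest of that group. The part of myeloid RNA in the Osm values was not tested. Medians were -0.12 for endothelium, -0.003 for smooth muscle and pericytes, -1.055 for T cells, 0.01 (0.013) for B cells, -0.31 for dendritic cells, -1.29 for red blood cells and -1.76 for adipocytes, and no marker of these lists was at 0 in all libraries. Of the tested markers, 8 of 9 for T cells and 5 of 5 for red blood cells did not overlap. The same held for 2 of 6 for dendritic cells, 2 of 8 for endothelium and 1 of 7 for smooth muscle and pericytes. It held for 0 of 5 B cell markers and 0 of 4 adipocyte markers. Adipocyte sums overlapped, at 7.8, 69.9 and 11.1 FPKM in WT and 1.6, 1.34 and 31.8 FPKM in Crlf2-/- hearts.

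**Figure D4:**
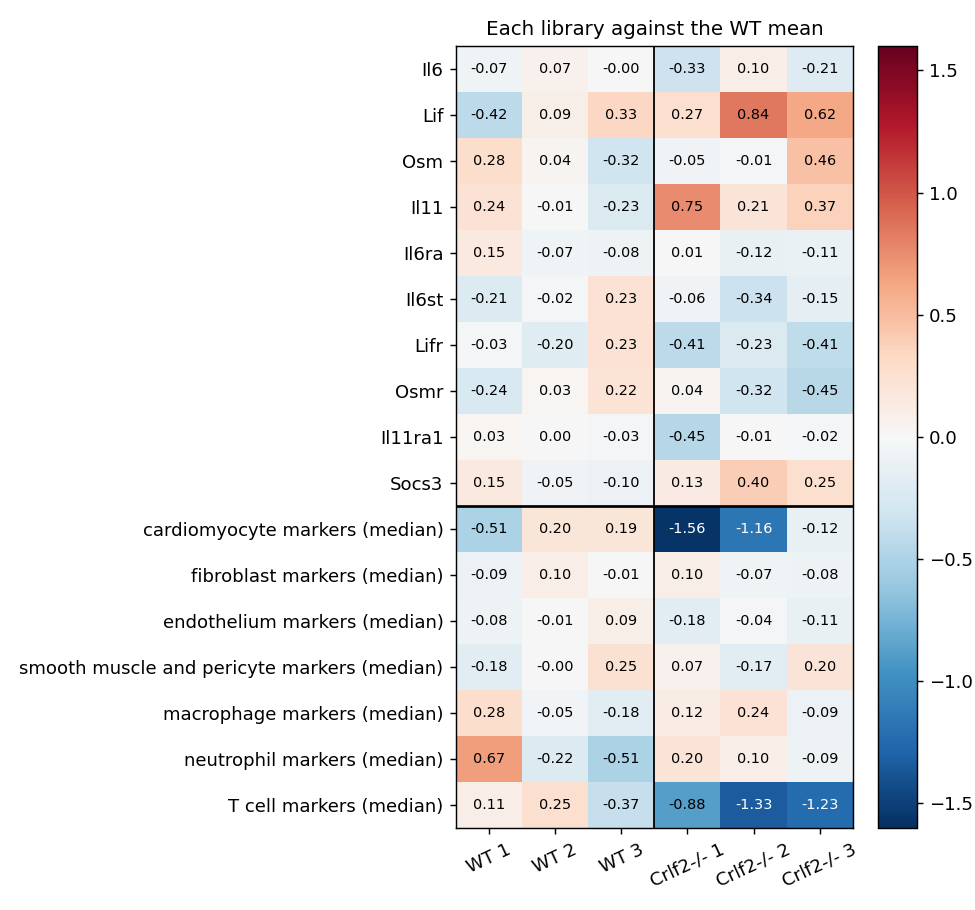
Log2(FPKM + 0.1) of each library minus the WT mean for the 10 family genes (upper block) and as the median over markers of 7 cell types (lower block), with red above and blue below the WT mean. Lifr is below the WT mean in all 3 Crlf2-/- libraries (-0.415, -0.234 and -0.406), Il11ra1 is low in the first of them alone (-0.45), and the cardiomyocyte median runs from -1.565 to -0.12 in Crlf2-/- and from -0.51 to 0.20 in WT libraries.

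Genes with a profile most like that of Socs3 and of Lifr, the member with the smallest p, were sought among all tested genes outside the family. Likeness was measured as the mean absolute difference, over the 6 libraries, between deviations from each gene's own mean on the log2(FPKM + 0.1) scale. For Socs3 the nearest genes were Tmeff1 (0.0322), Tmem86a (0.0334) and Neurl3 (0.0342), where the median over all genes was 0.211. For Lifr they were Adora2a (0.0486), Bend7 (0.0747) and Lin52 (0.0754), where the median was 0.240. With 6 libraries and 15520 genes, some profiles lie close together in any case, and 0 of these 6 genes were called (limma adjusted p from 0.538 to 0.923, with 1, Lin52, at an unadjusted p under 0.05).

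The fitted values were recomputed under 14 alternatives, 6 of which leave out 1 library. In each of them 0 family genes were called by limma, with 0 to 3 at an unadjusted p under 0.05, and the smallest adjusted p of any family gene was 0.551, for Lif.

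**Figure D5:**
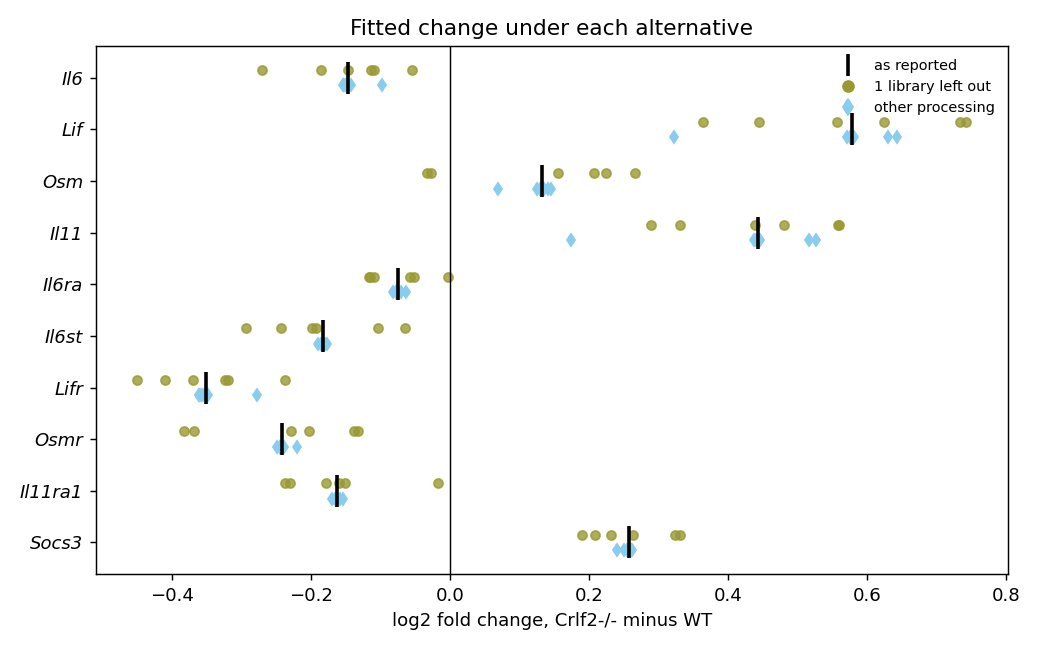
Log2 fold change of each family gene, Crlf2-/- minus WT, as reported (black bar), with each library left out (circles) and under the other processing alternatives (diamonds). Osm has values on both sides of 0 (-0.03 to 0.27), and Lif, Il11, Socs3 and the 5 receptors keep their side in the alternatives shown, although Il6ra reaches -0.003.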

How the data were processed

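RNA from 3 WT and 3 Crlf2-/- hearts, numbered 1 to 3 in the labels, was analysed. The authors trimmed reads with fastp, aligned them with HISAT2 (version 2.0.5 in the submitters' notes, which list mm10 beside hg38), used featureCounts for counting and deposited gene lengths and FPKM. FPKM times length gave whole fragments for 100% of nonzero values (tolerance 0.01 fragments). Fragments served for depth, filter and scaling. Positions followed GRCm38: 53585 of 54532 genes, 9 family genes among them, have the start and end of GENCODE M21, and for Il11 the table's position is given. The table held 0 columns of other samples.

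log2(FPKM + 0.1), scaled with TMM factors, was fitted with limma 3.58.1 (R 4.3.3; trend and robust) for genes reaching 10 fragments in 3 or more libraries and 15 in total. The deposited unit is FPKM, so the test used the log scale, and limma voom on the recovered fragments was an alternative. Printed FPKM are as deposited. Fits were tested on simulated data. Python 3.11.15 made the other steps. The family genes, gene lists and tests were chosen with earlier results of these data known. Named list genes are the called ones, otherwise up to 4 with the smallest p. Some genes of these lists are counted but not reported here by name.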

Additional observations from a re-analysis of the deposited data

How the results depend on the processing

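Across 350 recomputed values, 310 were classed as kept, 38 moved and 2 changed sign. A fold change was kept if it held its direction and side of the threshold, and a median if it stayed within the spread. A count was kept if it stayed within a set factor of the main count, so a change from 2 to 3 family genes was classed as kept. The 2 were Osm, at -0.027 without WT replicate 3 and -0.033 without Crlf2-/- replicate 3, and its range with single libraries left out was -0.033 to 0.266. The causes were not tested. The number of family genes at an unadjusted p under 0.05 was 2 and became 1 with FPKM as deposited, with median-of-ratios scaling, with no filter and with the replicate block, and 0 to 3 with single libraries left out (0 without Crlf2-/- replicate 3, 3 without Crlf2-/- replicate 1). Over all genes, limma called 2 (1 higher, 1 lower). With no filter it called 6 (2 higher, 4 lower), with 10 fragments required in every library 1 (0 lower; 919 at an unadjusted p under 0.05), and with single libraries left out 1 to 14 (1 to 5 higher, 0 to 10 lower; 641 to 1144 at an unadjusted p under 0.05). The 14 came without Crlf2-/- replicate 1, and 7 without WT replicate 3. A pseudocount of 1 moved the ligand median from 0.29 to 0.12 (0.121) and the median of all 10 genes from -0.11 to -0.08. With single libraries left out the latter ranged from -0.109 to -0.035, the median of the other receptors from -0.514 to 0.073 (0.073 without Crlf2-/- replicate 1, -0.039 without WT replicate 1) and that of the inhibitors from -0.049 to 0.037.

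Both groups carry replicate numbers 1 to 3. The correlation between equally numbered libraries was -0.016, 0.115 and 0.119, and no pairing was assumed. With the replicate block limma called 4 genes (3 lower), 0 of them family genes. Depth limits Il11 and Osm, with 14 to 62 fragments, more than the receptors.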
